A study of Thermochaetoides thermophila with 9 samples.

Results

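The genes described here are those of the thermophilic fungus Chaetomium thermophilum (named Thermochaetoides thermophila in the sample labels) whose transcript counts were several times higher in xylose medium than in both glucose medium and sugar-free medium, with similar means in those other media. They were selected on the measured counts themselves. A gene was taken when each of the 3 xylose libraries exceeded every glucose and every reference library, when its mean in xylose was at least 4 times the mean in glucose and at least 4 times the mean in reference, when the ratio of the glucose mean to the reference mean lay between 0.67 and 1.5, and when the xylose mean was at least 100 scaled counts. A scaled count is the number of reads on a gene divided by the size factor of its library. Of 7785 genes listed, 141 met these conditions, and 135 remained after 14 genes listed by identifier, among them xylosidases, ribosome assembly factors and mitochondrial carriers, had been set aside (6 of those 14 met the conditions). Because the choice rested on all 3 comparisons between conditions, the folds of the 135 genes are given as a description and carry no test.

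The cultures were wild-type mycelium grown on complex medium and, by the study's methods, in glucose medium. They were then depleted of sugar for 48 h by the labels, or 42 h by the methods, in a minimal medium that still held peptone and yeast extract. Xylose cultures then received 1% D-xylose for 6 h, glucose cultures 1% D-glucose for 6 h, and reference cultures minimal medium with no sugar for 6 h. All cultures, reference included, thus shared the glucose pre-culture and the depletion. Polyadenylated RNA of whole cultures was sequenced from 3 biological replicates per condition, 9 libraries in all, with 38806913 to 52229013 reads counted on genes per library. A sequenced culture cannot separate fewer cells that express a gene from less RNA of that gene per cell.

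Xylose is the main sugar of the hemicellulose xylan. Fungi that live on plant litter reduce it to xylitol, oxidise that to xylulose and feed the phosphorylated product into the pentose phosphate pathway, whereas glucose enters glycolysis directly. In budding yeast, a usable sugar given to starved cells is known to raise genes for ribosome production: RNA polymerase I makes the large ribosomal RNA precursor, RNA polymerase III makes tRNAs, and the U3 small nucleolar ribonucleoprotein takes part in the early cuts of the precursor.

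The 135 genes had a median of 3357 scaled counts in xylose, 495 in glucose and 460 in reference. Their means ran between 115 and 43692 scaled counts in xylose, between 23.2 and 8930 in glucose, and between 19.0 and 9521 in reference. In xylose, 115 of them reached at least 1000 scaled counts and 16 reached at least 10000. The set thus covers a wide range of counts, and the smallest raw count of any of these genes in any library was 6. They took up 1.47% to 1.85% of all counts in the xylose libraries, 0.148% to 0.372% in the glucose libraries and 0.221% to 0.286% in the reference libraries. The share of counts on ribosomal RNA genes also differed, at 11.6% to 13.3% in xylose, 7.36% to 22.9% in glucose and 15.7% to 32.0% in reference. With the ribosomal RNA genes taken out of the totals, the 135 genes held 1.67% to 2.09% of counts in xylose, 0.192% to 0.402% in glucose and 0.262% to 0.346% in reference. The gap between xylose and both other conditions on either total follows from the conditions that chose the genes, and nothing is read from it.

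**Figure D1:**
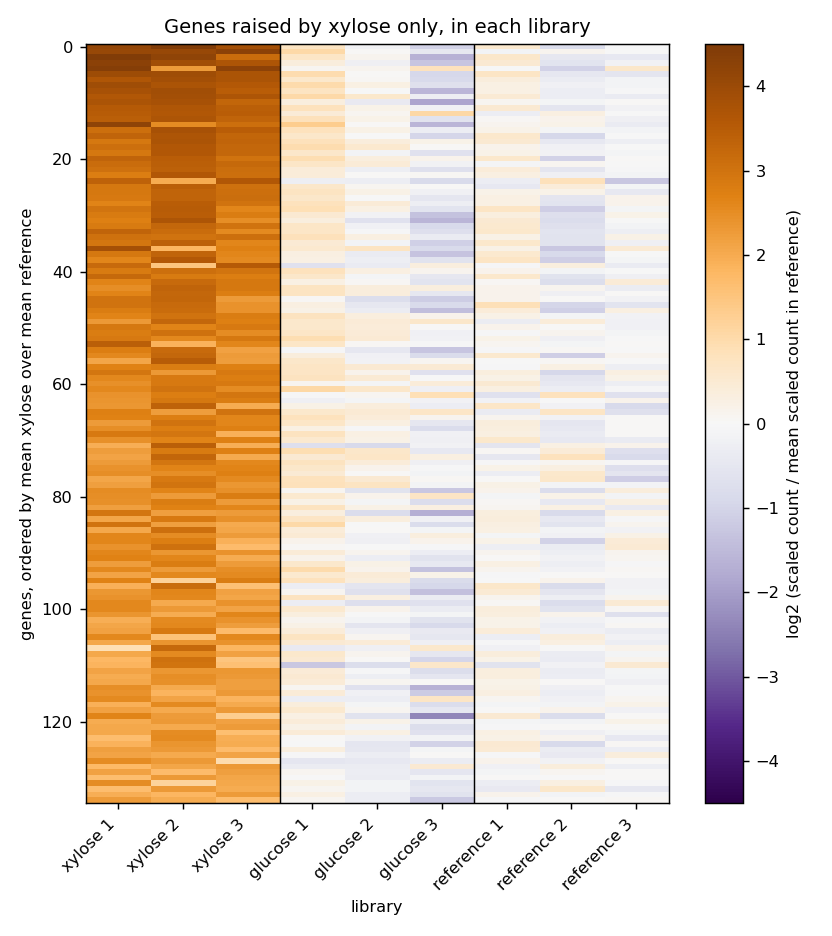
Colour gives the log2 ratio of a gene's scaled count in a library to its mean in reference, for the 135 genes (rows, ordered by the ratio of xylose to reference means) in 9 libraries (columns: 3 xylose, 3 glucose, 3 reference). Xylose columns are orange at varying depth, paler where a xylose library was low, while glucose and reference columns lie around 0, glucose 1 on the orange side and glucose 3 on the purple side.

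The ratio of the xylose mean to the reference mean had a median of 6.35, with quartiles of 5.08 and 8.20 and a highest value of 17.8. The ratio of the xylose mean to the glucose mean had a median of 5.75, with quartiles of 4.72 and 7.95 and a highest value of 18.3. Both ratios were at least 8 in 24 genes, at least 10 in 11 genes and at least 15 in 3 genes. The lowest xylose library exceeded the highest of the other 6 libraries by a median factor of 3.20. In the edgeR quasi-likelihood fit over all genes, the log2-fold changes of the 135 genes had a median of 2.74 for xylose against reference, with standard errors of 0.23 to 0.66, and a median of 2.62 for xylose against glucose, with standard errors of 0.22 to 0.65. Over the 6904 genes tested the medians were -0.05 and 0.16.

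All 135 genes passed the filter on low counts. All were called higher in xylose against reference and in xylose against glucose (edgeR, Benjamini-Hochberg adjusted p under 0.05), where 32.3% and 28.2% of the 6904 genes tested were called higher. In glucose against reference 0 of the 135 were called in edgeR, 1 was higher at an unadjusted p under 0.05, and DESeq2 called 1. In that comparison 24.0% of all genes tested were called higher and 25.4% lower. These counts follow from the conditions that chose the genes and nothing is read from them. Leaving out the library reference 2 brought the number called in glucose against reference to 5 of 135, all higher, and leaving out glucose 3 brought it to 1.

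**Figure D2:**
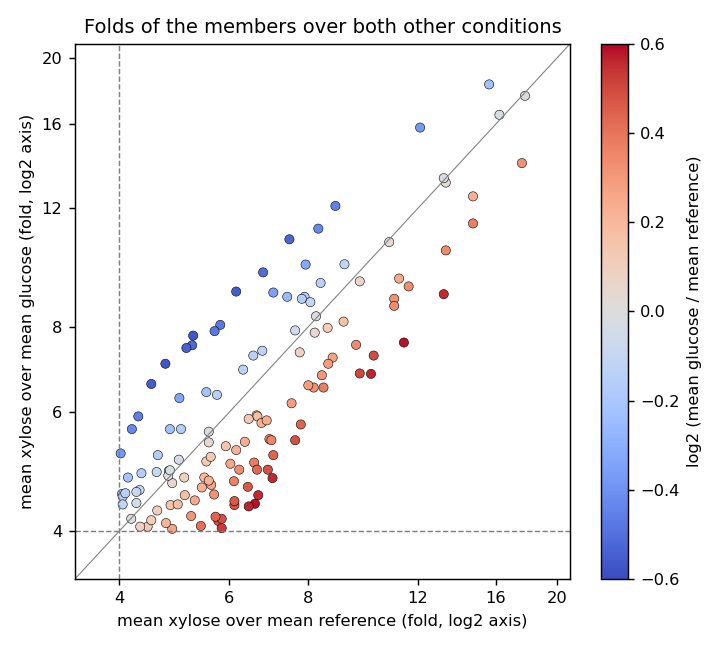
Each point is 1 of the 135 genes, with the ratio of the xylose mean to the reference mean on the horizontal axis and to the glucose mean on the vertical axis (both log2 axes), coloured by the log2 ratio of glucose to reference. Most points lie under 8 on both axes, 3 genes exceed 15 on both, and dashed lines mark the chosen minimum of 4.

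The genes with the widest gaps between xylose and the other media have no product name in the tables used here and are given by locus tag. CTHT_0061240 had 4853, 5994 and 3971 scaled counts in the xylose libraries, 457, 248 and 136 in glucose and 407, 160 and 265 in reference. Its mean in xylose was 17.6 times that in glucose and 17.8 times that in reference. CTHT_0058230 had 8768, 6695 and 5874 scaled counts in xylose, 596, 386 and 186 in glucose and 652, 303 and 413 in reference. The glucose and reference ranges of both genes overlapped, and every xylose library lay at least 8.69 times above the highest of the other libraries in CTHT_0061240 and 9.02 times above it in CTHT_0058230.

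CTHT_0069420, the last of the 3 genes with both ratios over 15, was less even. It had 1800, 1520 and 744 scaled counts in xylose, 130, 90.7 and 25.9 in glucose and 129, 59.7 and 61.9 in reference, and the libraries xylose 3 and glucose 3 were each the lowest of their condition. CTHT_0016600 had 1415, 1433 and 1636 scaled counts in xylose, 173, 85.7 and 60.4 in glucose and 78.5, 92.0 and 84.1 in reference. Its xylose and reference libraries were tight, and the spread lay in glucose. CTHT_0067520 had 7438, 7844 and 5530 scaled counts in xylose, 730, 435 and 155 in glucose and 609, 535 and 575 in reference. Here too the reference libraries were close together while glucose 1 exceeded glucose 3 by 4.70 times. CTHT_0042520, CTHT_0033480, CTHT_0044060 and CTHT_0016120 had ratios of xylose to reference of 13.3, 14.7, 13.3 and 13.2, and each of them also had its glucose libraries in the order 1, 2 and 3, high to low. CTHT_0058380, at a ratio of 13.2, shared that order. CTHT_0020400, at a ratio of 14.7, did not, with 82.7, 84.7 and 133 scaled counts in glucose 1, 2 and 3.

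Product names were found for 8 of the 135 genes, in the supplementary tables that accompany the study, from which only names were used. The other 127 are known here by locus tag alone. Those tables name 4041 of all 7785 genes listed, so they cover the 135 poorly, and the 8 need not represent the rest. RefSeq lists 133 of the 135 as protein-coding and 2 (CTHT_0045360 and CTHT_0071780) as pseudogenes. The 8 named genes fall into RNA polymerase III and ribosome assembly (3 genes), translation (2 genes) and primary metabolism (3 genes).

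CTHT_0060190 is named gar2, which in fission yeast is a nucleolar protein needed to make the small ribosomal subunit. It had 12239, 17675 and 16155 scaled counts in xylose, 1999, 2223 and 2119 in glucose and 2111, 2338 and 2589 in reference. Its log2-fold change was 2.96 ± 0.25 for xylose against glucose and 2.79 ± 0.25 for xylose against reference (standard errors of the edgeR fit), and the 6 libraries without xylose lay close together. CTHT_0000890 carries the ortholog name U3 small nucleolar RNA-associated protein 5, a part of the complex that in budding yeast processes the precursor of small-subunit ribosomal RNA. It had 6190, 6669 and 6351 scaled counts in xylose, 1540, 1375 and 1331 in glucose and 916, 1163 and 802 in reference. All 3 glucose libraries lay above all 3 reference libraries in this gene, at a ratio of means of 1.47, near the upper bound of 1.5. CTHT_0052940, annotated as Rpc4, a subunit of RNA polymerase III, had 1811, 2211 and 1895 scaled counts in xylose, 320, 278 and 186 in glucose and 194, 220 and 205 in reference. Its ratios, 7.54 over glucose and 9.56 over reference, were the highest of the 8 named genes. Both gar2 and Rpc4 also stand in the study's own selection of its 50 most sugar-responsive genes, which was made on these libraries and is not independent of them.

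CTHT_0042990, the polyadenylate-binding protein that coats the poly(A) tails of mRNAs and promotes their translation, had the largest counts of the 135 genes. It had 36038, 55983 and 39055 scaled counts in xylose, 12384, 8903 and 5502 in glucose and 8923, 8671 and 10968 in reference. Glucose enclosed the whole reference range in this gene. CTHT_0069950, similar to the asparaginyl-tRNA synthetase that loads asparagine onto its tRNA, had 19382, 37322 and 25756 scaled counts in xylose, 5815, 5344 and 6063 in glucose and 3118, 5157 and 3457 in reference. As in CTHT_0000890, every glucose library exceeded every reference library, with a ratio of means of 1.47.

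CTHT_0063130, similar to the glutamine-dependent asparagine synthetase that makes the amino acid used by that tRNA ligase, had 19929, 26993 and 26819 scaled counts in xylose, 4009, 3480 and 4943 in glucose and 5268, 2738 and 3113 in reference. Its mean was 5.93 times higher in xylose than in glucose and 6.63 times higher than in reference, and the glucose and reference ranges overlapped. CTHT_0055800, a mitochondrial subunit of the NAD-dependent isocitrate dehydrogenase of the tricarboxylic acid cycle, had 17978, 32843 and 21578 scaled counts in xylose, 5697, 4973 and 5081 in glucose and 6543, 6144 and 4104 in reference. Its ratios of 4.60 over glucose and 4.31 over reference were close to the chosen minimum of 4. CTHT_0057880, annotated as a putative bifunctional enzyme of purine synthesis, had 20656, 20589 and 24566 scaled counts in xylose, 5195, 3717 and 3417 in glucose and 3009, 5589 and 2523 in reference. Reference 2 was the highest of the 6 libraries without xylose in this gene.

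**Figure D3:**
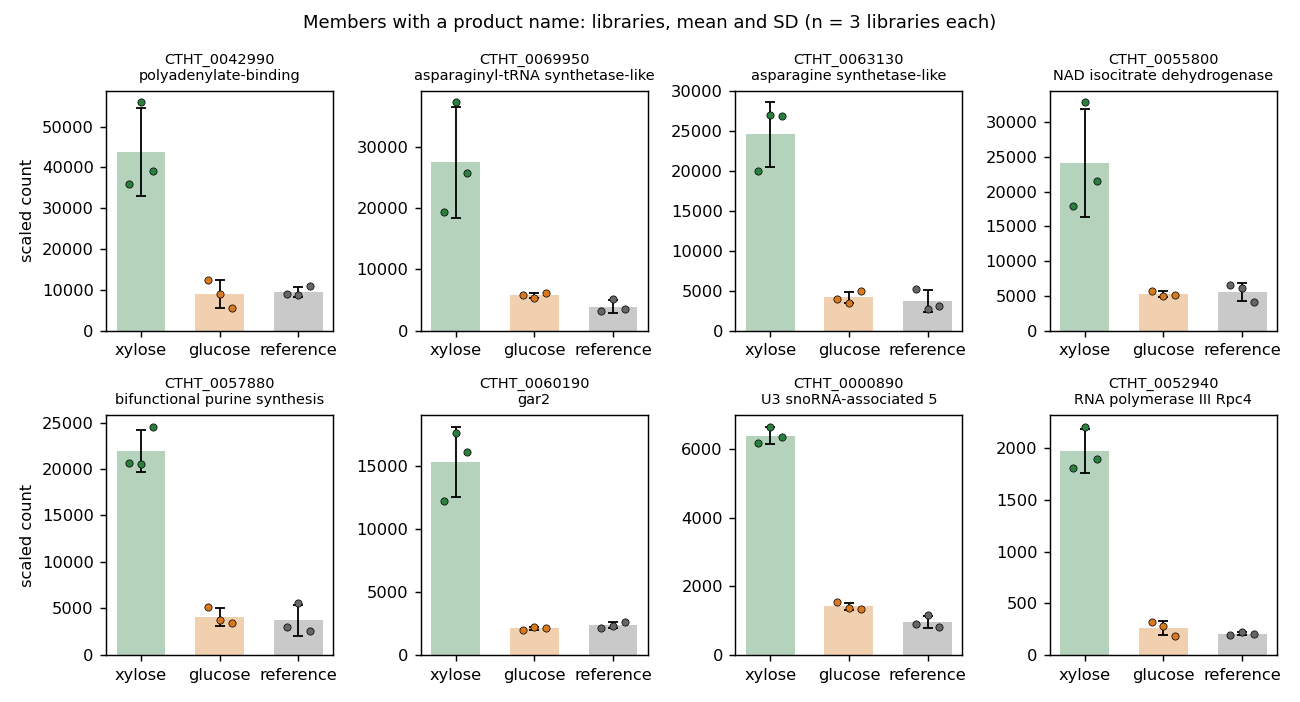
Scaled counts of the 8 genes with a product name, 1 panel each, with xylose, glucose and reference from left to right; points are the 3 libraries in replicate order, bars their mean and error bars their SD. In each panel the xylose points lie above all others; for gar2 the means are 15357 in xylose, 2114 in glucose and 2346 in reference.

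Partners of some of these enzymes were not selected. The other gene named as a subunit of NAD-dependent isocitrate dehydrogenase, CTHT_0033640, averaged 27522 scaled counts in xylose, 6876 in glucose and 3729 in reference, so that its glucose mean stood above 1.5 times its reference mean. CTHT_0036600, named after GMP synthase of purine nucleotide synthesis, averaged 25161 scaled counts in xylose, 5483 in glucose and 1111 in reference. CTHT_0065840, similar to amidophosphoribosyltransferase, the first enzyme of purine synthesis, averaged 1250 scaled counts in xylose, 1930 in glucose and 5033 in reference. These genes were looked up after the names of the selected ones had been seen and were not tested as a list.

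Other genes of the same processes were taken from the names in the study's tables. Outside the 135, 23 genes carried a name linked to ribosome assembly, and 21 were called higher and 1 lower in xylose against reference, where 32.3% of all genes tested were called higher. In xylose against glucose 22 were called higher and 0 lower, beside 28.2% of all genes tested. Their median log2-fold changes were 2.57 and 2.49. In glucose against reference they went both ways, with 5 called higher and 11 lower, beside 24.0% and 25.4% of all genes tested. The values of gar2 and CTHT_0000890 in that comparison, -0.18 ± 0.24 and 0.54 ± 0.22, were bounded by the choice of genes. The GTPase NOG2 of large-subunit assembly (CTHT_0055100) had a log2-fold change of 4.89 ± 0.34 for xylose against reference (edgeR adjusted p = 3.24e-06) and averaged 9894 scaled counts in xylose, 935 in glucose and 353 in reference. The only one called lower in xylose against reference was CTHT_0056740, named as a growth-regulating nucleolar protein, at -1.18 ± 0.24 (edgeR adjusted p = 0.00123). Of these 23 names, 15 come only from tables that are shortened here and begin with the genes most decreased in a sugar, which favours genes low in glucose, and 4 come from the study's own 50 genes, chosen on these libraries. The 23 also include CTHT_0055990, CTHT_0062220 and CTHT_0066500, which belong to the 14 genes set aside. CTHT_0055990 met all the conditions, so its calls as higher in xylose followed from them.

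Outside the 135, 4 genes were found by the words used for RNA polymerases I and III, although the name of CTHT_0045300 gives no polymerase number and that of CTHT_0058280 also covers polymerase II. All 4 were called higher in xylose against reference, beside 32.3% of all genes tested, with log2-fold changes of at least 1.05. In xylose against glucose all 4 were called higher, beside 28.2%, with log2-fold changes of at least 0.58. Of these 4 names, 1 stands in the study's own 50 genes, chosen on these libraries, and 1 comes only from the shortened tables. The highest was CTHT_0057070, a polypeptide shared by polymerases I and III and 1 of the 14 genes set aside, which averaged 4250 scaled counts in xylose, 284 in glucose and 141 in reference. The lowest, CTHT_0009170, similar to a subunit of polymerase III, had a log2-fold change of 0.58 ± 0.21 for xylose against glucose (edgeR adjusted p = 0.0361), and this call was lost in 13 of 16 alternatives (edgeR or DESeq2 adjusted p of 0.0383 to 0.131 over the 16), among them those without any 1 xylose or glucose library or without reference 2. The other 3 genes kept their call in each of them.

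Among 49 other genes whose names hold words for translation factors or tRNA ligases, 41 were called higher and 4 lower in xylose against reference (median on the log2 scale 2.68), beside 32.3% of all genes tested called higher. In xylose against glucose 35 were called higher and 3 lower (median 1.42), beside 28.2%, and in glucose against reference 33 were called higher and 3 lower, beside 24.0% and 25.4%. CTHT_0067860, similar to elongation factor 1-gamma, averaged 87936 scaled counts in xylose, 16859 in glucose and 4637 in reference. CTHT_0016860, a putative initiation factor, averaged 380 scaled counts in xylose, 330 in glucose and 1636 in reference and was called lower in xylose against reference (-2.03 ± 0.33, edgeR adjusted p = 0.000292). The list also holds genes that are neither, the kinase of initiation factor 2-alpha CTHT_0028700 and the methyltransferases of elongation factors CTHT_0026390 and CTHT_0048750. CTHT_0026390 was 1 of the 3 called lower in xylose against glucose (-1.04 on the log2 scale), with the putative initiation factor CTHT_0066060 (-2.45). The lowest value in xylose against glucose, -4.01, belongs to CTHT_0058250, which 1 table calls a DNA topoisomerase and another an elongation factor of RNA polymerase II. The 49 also include translation elongation factor 3 (CTHT_0030910), 1 of the 14 genes set aside. It met all the conditions, so its calls as higher in xylose followed from them. Names of 2 of the 49 stand in the study's own 50 genes, chosen on these libraries.

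None of 86 genes named as ribosomal proteins was among the 135. Only 8 of the 135 have a product name, so a list built on names could hold few of them. Nothing is read from this absence. The list was collected by words meant for the cytosolic ribosome, but CTHT_0037120 carries the name of a mitochondrial subunit and several names do not give the compartment. In this list 84 were called higher and 1 lower in xylose against reference, and 57 higher, 1 lower and 28 not called in glucose against reference, with median log2-fold changes of 3.18 and 1.73. Over all genes tested 32.3% were called higher in the first of these comparisons, and 24.0% higher and 25.4% lower in the second. In xylose against glucose 35 were called higher and 0 lower, beside 28.2% of all genes called higher, with a median of 1.53. That last count moved with single libraries and with the settings of the fit: it was 74 without reference 2 and 62 without reference 3, and it was 3, 5 and 8 without glucose 1, 2 and 3, and 9, 10 and 5 without xylose 1, 2 and 3. Of 4 genes named as sugar transporters, 0 were among the 135, a count limited in the same way. Of these 4, edgeR called 0 higher and 2 lower in xylose against reference, and 0 higher and 1 lower in xylose against glucose. In glucose against reference it called 0 higher and 3 lower. At an unadjusted p under 0.05, 0 were higher against reference and 2 against glucose, and DESeq2 called 0 and 1. All 4 names come from the shortened tables, which begin with decreased genes.

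**Figure D4:**
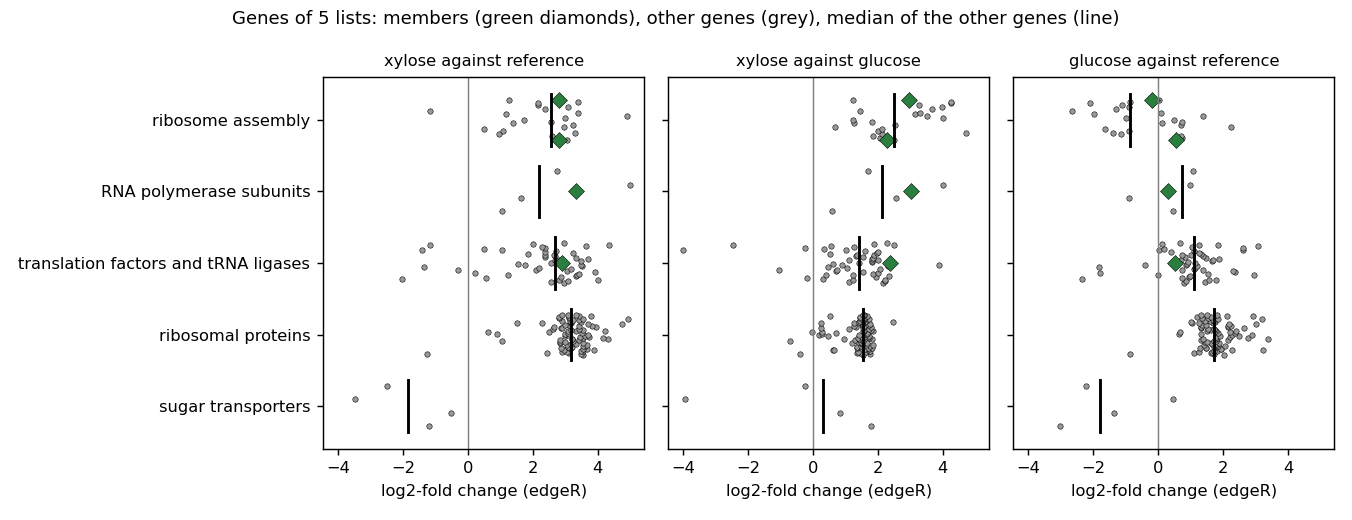
Log2-fold changes of the edgeR fit for the genes of 5 lists in xylose against reference, xylose against glucose and glucose against reference; green diamonds are genes of the 135, grey points the other genes, and black lines the medians of the other genes. Other ribosome assembly genes have medians of 2.57, 2.49 and -0.87, and ribosomal proteins 3.18, 1.53 and 1.73, in the order of the panels.

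The order of the glucose libraries was a feature that the choice of genes had not fixed, since it used the glucose mean and only bounded the highest library. In 107 of the 135 genes (79.3%) glucose 1 lay above glucose 2 and glucose 2 above glucose 3, an order found in 29.1% of 6370 other genes with at least 10 counts in all libraries. Glucose 1 was the highest glucose library in 116 of the 135 genes and glucose 3 the lowest in 110. The median scaled count of the 135 genes was 689 in glucose 1, 459 in glucose 2 and 326 in glucose 3. On the log2 scale the median deviation from the glucose mean was 0.45 in glucose 1 and -0.48 in glucose 3, where the other genes had medians of 0.00 in both. This order is descriptive, since the 135 genes share the same 3 libraries.

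The same order was common in the genes that met every other condition but had another ratio of glucose to reference. It was found in 107 of 157 genes (68.2%) whose glucose mean was above 1.5 times the reference mean, and in 20 of 32 genes (62.5%) whose glucose mean was under 0.67 times the reference mean. It was thus not confined to the 135 genes. Glucose 1 had the lowest share of counts on ribosomal RNA genes of the glucose libraries, 7.36%, and glucose 3 the highest, 22.9%, with 11.7% in glucose 2. Glucose 3 also had the fewest counts, 38806913, and the smallest size factor, 0.579. Their part in the order was not tested. Without glucose 3 the conditions chose 107 genes, 96 of them among the 135, and without glucose 1 they chose 152, 111 of them among the 135.

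Within reference, reference 1 was the highest library in 82 of the 135 genes and reference 2 the lowest in 82. Median deviations were 0.20 and -0.19 on the log2 scale, against 0.01 and 0.02 in the other genes. Within xylose, xylose 2 was the highest in 87 genes, with a median deviation of 0.21, against 0.06 in the other genes. The ratio of the highest to the lowest library had a median of 1.49 in xylose, 1.96 in glucose and 1.61 in reference for the 135 genes. Over all 6503 genes used for scaling it had medians of 1.57, 1.38 and 1.66 in the same order of conditions, so that the median of the 135 genes was the larger only in glucose. The 6503 genes include 133 of the 135 and were not matched to them for level. The choice of genes also bounded the lowest xylose library.

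**Figure D5:**
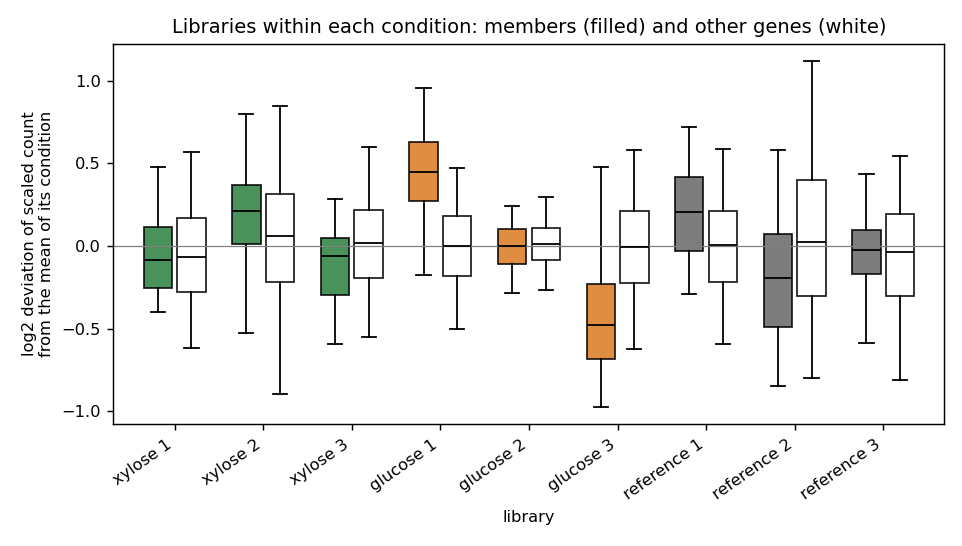
Log2 deviation of scaled counts from the mean of the condition in each library, for 133 of the 135 genes (filled boxes) and 6370 other genes (white boxes) with at least 10 counts in all libraries; boxes span the quartiles with the median as a line, and whiskers the 5th to 95th percentile. The filled boxes sit high in glucose 1 and low in glucose 3, with medians of 0.447 and -0.480, while the white boxes are centred on 0.

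The xylose libraries agreed to within 1.5 times in 69 of the 135 genes and differed by at least 2.5 times in 16. The steadiest was CTHT_0026810, with 8425, 8235 and 8570 scaled counts in xylose, 1806, 1276 and 789 in glucose and 1208, 675 and 1203 in reference. Xylose 2 was the highest library in 7 of the 16 uneven genes and the lowest in 8. Over all 135 genes it was the highest in 87 and the lowest in 28, so it was often an extreme there too. CTHT_0064840 had 978, 4830 and 1845 scaled counts in xylose, 393, 449 and 783 in glucose and 461, 522 and 591 in reference. Its mean in xylose depended on xylose 2, and xylose 1 stood little above glucose 3. CTHT_0020400 went the other way, with 1594, 378 and 1454 scaled counts in xylose, 82.7, 84.7 and 133 in glucose and 75.9, 37.4 and 119 in reference. CTHT_0023510 showed the same low xylose 2, with 1274, 396 and 1634 scaled counts in xylose, 90.5, 108 and 176 in glucose and 135, 178 and 109 in reference.

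Glucose and reference ranges overlapped in 129 of the 135 genes. In 4 genes every glucose library lay above every reference library and in 2 genes every reference library lay above every glucose library. The bounds on the ratio of glucose to reference favour overlap, and its share over all genes was not counted. Nothing is read from these counts. The mean was higher in glucose than in reference in 82 genes and lower in 53. The ratio of glucose to reference had a median of 1.09 and ran between 0.671 at the low end and the bound of 1.5 at the high end. The bounds on this ratio divided a larger group: 330 genes met all other conditions, and 157 of them had a ratio above 1.5, 141 a ratio within the bounds and 32 a ratio under 0.67.

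Several genes lay next to a bound. CTHT_0018920 was just inside the minimum ratio of xylose to reference at 4.02, and CTHT_0068380 just outside at 3.92. CTHT_0056370 was just inside the minimum ratio of xylose to glucose at 4.03, and CTHT_0055500 just outside at 3.99. For the ratio of glucose to reference, CTHT_0028550 was just inside the lower bound at 0.671 and CTHT_0060770 just outside at 0.656, while CTHT_0048710 and CTHT_0032720 lay on either side of the upper bound, closer to 1.5 than the rounding used here shows. The lowest xylose mean among the 135 genes was 115 scaled counts in the pseudogene CTHT_0045360, and CTHT_0018270, at 96.8, was just outside. CTHT_0056370 was also among the genes with the largest counts, with 19993, 24639 and 25425 scaled counts in xylose, 6808, 6475 and 4090 in glucose and 4676, 5852 and 3898 in reference.

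When each library was left out in turn, the conditions chose 107 to 152 genes, and 47 of the 135 genes were chosen all 9 times. Of the named genes, gar2, Rpc4, asparagine synthetase and the purine enzyme were among those 47. CTHT_0058230 and CTHT_0016600 were chosen 8 times of 9, CTHT_0061240 and CTHT_0069420 9 times.

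Positions on the genome were compared only between immediate neighbours, and wider grouping was not examined. In the order of RefSeq genes, 6 of the 135 (4.44%) had another of the 135 as an immediate neighbour. Of 6719 other genes, 244 (3.63%) were next to one of the 135. The 3 neighbouring pairs were CTHT_0016120 with CTHT_0016130, CTHT_0055790 with the isocitrate dehydrogenase subunit CTHT_0055800, and CTHT_0066670 with CTHT_0066680. CTHT_0016120 had 4144, 4420 and 3277 scaled counts in xylose, 493, 297 and 100 in glucose and 362, 244 and 291 in reference. CTHT_0016130 had 5059, 6820 and 4159 scaled counts in xylose, 829, 520 and 269 in glucose and 994, 361 and 666 in reference. In both pairs without the dehydrogenase, the neighbours shared the order of their xylose libraries, xylose 2 the highest and xylose 3 the lowest. Over the 135 genes xylose 2 was the highest in 87 and xylose 3 the lowest in 52, so nothing is read from the shared order. CTHT_0066670 had 1171, 1431 and 709 scaled counts in xylose, 153, 86.7 and 67.3 in glucose and 164, 148 and 131 in reference, and CTHT_0066680 had 573, 776 and 377 in xylose, 82.7, 61.5 and 34.5 in glucose and 81.2, 89.0 and 84.1 in reference. How reads over overlapping genes were assigned is not given in the sources used here, so shared reads between neighbours cannot be told apart from separate transcripts.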

How the data were processed

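Polyadenylated RNA from 9 cultures (3 each with xylose, glucose and no sugar) had been sequenced as single 50-bp reads. The authors mapped the reads with TopHat2 and deposited raw read counts per gene, taken with summarizeOverlaps on Ensembl release 28 gene models. Versions, strand setting and the treatment of overlapping genes are not given in the sources used here. Gene identifiers were matched to RefSeq locus tags of assembly CTHT_3.0 (7472 of 7785 matched).

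For levels, counts were divided by median-of-ratios size factors over 6503 genes with at least 10 counts in all 9 libraries. Fold changes came from edgeR 4.0.16 (R 4.3.3; TMM scaling, filterByExpr with a minimum count of 10, quasi-likelihood test, 1 model over 9 libraries, Benjamini-Hochberg adjustment over 6904 genes, threshold 0.05). Tested on simulated data of 6882 genes, the fit of xylose against reference called 83 of 100 genes given a 4-fold change, 17 of 100 given a 2-fold change and 4 genes given none. No other genes were changed in the simulation, whereas 4463 of 6904 genes were called in the data. The adjustment depends on that number, so these shares need not hold for the data. Alternatives were DESeq2 1.42.0, other scalings and filters, a replicate block, fits on the conditions compared and leaving out each library.

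The genes and the 5 name lists were chosen with earlier results of these data known. Genes were named in the text if they had the highest xylose means, the largest ratios, values nearest a bound, the widest spread in xylose, a product name or a neighbour in the set. Library totals ran between 38806913 and 52229013 counts. Standard errors cover the spread between libraries, which the labels call biological replicates.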

Additional observations from a re-analysis of the deposited data

How the results depend on the processing

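The selection gave 135 genes, and 221 with a minimum ratio of 3, 51 with a minimum ratio of 6 and 81 with narrower bounds on the ratio of glucose to reference. With TMM factors it gave 148 genes, 132 of them among the 135, with total counts 177 (132 shared), with size factors over all genes without a zero 133 (129 shared), and without the separation of libraries, an alternative added after seeing the data, 137. Leaving out each library in turn gave 107 to 152. The number of ribosomal protein genes called higher in xylose against glucose was the least stable: 35 as reported, 55 with DESeq2, 13 with DESeq2 size factors, 11 with at least 10 counts in all libraries, 11 with no filter, 73 with only the conditions compared, 71 with total counts and 3 to 74 when single libraries were left out. The cause was not tested. For sugar transporters in xylose against glucose it was 0 as reported, 1 with DESeq2, 1 with total counts, 1 with a replicate block and 0 to 1 when single libraries were left out. Of the 4 RNA polymerase genes called higher in xylose against glucose, CTHT_0009170 was lost in 13 of 16 alternatives, the replicate block among them. The 135 genes called in glucose against reference numbered 0 as reported, 1 with DESeq2 size factors, 4 with at least 10 counts in all libraries, 8 with no filter and 0 to 5 when single libraries were left out. Nothing in the labels says that a replicate number marks a shared culture or day. Deviations of same-numbered libraries correlated between -0.28 and 0.29 (median 0.03), those of libraries with different numbers between -0.25 and 0.28 (median -0.04), and the 3 pairs of libraries numbered 1 were positive (0.289, 0.208 and 0.169). The numbers were not taken as pairs, since the labels name none. The correlations cannot decide whether same-numbered libraries shared a culture or day, because deviations within a condition cancel out over its libraries. With the replicate number as a block, 4399 genes were called in xylose against reference, 3374 in xylose against glucose and 3343 in glucose against reference. Calls of the 135 genes set aside, 201 of the counts under an alternative stayed within 1.5 times and 23 moved. The standard error for xylose against reference had a median of 0.42 in the 20 genes under 1000 scaled counts in xylose and 0.36 in the other 115, on the log2 scale.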
